A study of Rattus norvegicus with 4 samples.

Results

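The miRNAs described here are the rat mature miRNAs whose number is 1000 or more, such as miR-1839-5p, miR-3556a and miR-3557-5p. They were chosen by name alone, with any letter suffix and either arm, and the choice used no measured value. Of 765 mature miRNAs in the deposited table, 140 met this rule, numbered from 1188 to 7578. The other 625 are the older names, among them the let-7 family.

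The study cultured H9c2 cells, a cardiomyoblast line from rat heart, for 48 h in normoxia or in a hypoxic chamber that absorbs oxygen. Small RNAs were sequenced from the cells and from exosomes, small vesicles that were collected from the culture medium by ultracentrifugation. Cells and exosomes from either oxygen condition gave 4 groups, each of which was 1 library of 1 cell line, with no further treatment or genetic change named. Replicates are mentioned at RNA extraction, but whether RNA of several cultures was pooled into each library is not stated. With 1 library per group, no difference here has a replicate check and no test between conditions was possible. The medium of both conditions contained foetal bovine serum that had been depleted of exosomes by ultracentrifugation.

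A miRNA is cut from a hairpin precursor, and either the 5p or the 3p arm of the hairpin can become the mature strand. Its seed, the bases near the 5′ end, directs an Argonaute protein to messenger RNAs with matching sites, which are then degraded or translated less. miRNA numbers are given in order of registration, and many late entries come from deep sequencing, are known from few species, or are read from the strand opposite to an older miRNA. A hairpin transcribed from the opposite strand gives a different mature sequence with a different seed.

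The sequences of 126 of the 140 miRNAs were found in the RefSeq annotation of the rat genome GRCr8. The miRNAs on which the following results turn are shown first, written 5′ to 3′, with the seed (bases 2 to 8) in capitals.
miR-3557-5p: gCCUUCUGacuccaaguccagu
miR-3556a: cGAUUUCAgauggugcua
miR-3596d: cUAUACAAucuacuaccuca
miR-1839-5p: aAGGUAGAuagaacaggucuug
miR-3120: cACAGCAAguguagacaggca
miR-3559-5p: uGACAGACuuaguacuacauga
miR-3559-3p: aUGUAGUAcugagucugucgug
miR-3560: cAAAUCCUugcccgggugcauu
miR-3473: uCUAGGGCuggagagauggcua
miR-3591: aACACCAUugucacacucca
miR-3574: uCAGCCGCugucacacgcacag

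No seed was common to any pair of these 11 sequences. Their GRCr8 positions are chr18:57128924-57128945 on the plus strand for miR-3557-5p, chr4:60617972-60617989 on the plus strand for miR-3556a and chr17:16320508-16320527 on the minus strand for miR-3596d. miR-3591 is at chr18:61028831-61028850 on the minus strand and miR-3574 at chr1:205755946-205755967 on the plus strand. The gene table places miR-3557 within the span of Ppargc1b, a transcriptional coactivator of mitochondrial genes, miR-3559 within Zdhhc15 and miR-3120 within Dnm3, a dynamin. That table does not say whether these sites are exonic or intronic. Whether a miRNA lies on the same strand as these genes, or as the other genes named below, is not given here.

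Several of these sequences are the reverse complement of a well-known miRNA. The pairs below are printed to show this, with the run of bases that each member shares with the reverse complement of the other in capitals.
miR-3557-5p: gCCUUCUGACUCCAAGUCCAGU
miR-378a-3p: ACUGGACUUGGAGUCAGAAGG
miR-3556a: CGAUUUCAGAUGGUGCUA
miR-29a-3p: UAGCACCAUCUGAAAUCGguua
miR-3596d: CUAUACAAUCUACUACCUCA
let-7f-5p: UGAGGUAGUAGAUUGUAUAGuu
miR-3574: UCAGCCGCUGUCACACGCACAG
miR-210-3p: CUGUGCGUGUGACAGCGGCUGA
miR-3591: AACACCAUUGUCACACUCCA
miR-122-5p: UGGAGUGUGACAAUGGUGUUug

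The RPM scale stood for 10404866 to 13285239 reads per library, and values below 10 reads are listed at 0. miRNAs made up 51.0% of these reads in normoxic cells, 26.9% in hypoxic cells, 0.115% in normoxic exosomes and 0.881% in hypoxic exosomes, leaving 13598 miRNA reads in normoxic exosomes, the fewest of the 4 libraries. The summed RPM of all miRNAs in hypoxia divided by that in normoxia was 0.528 in cells (log2 -0.92) and 7.69 in exosomes (log2 2.94), and each ratio of RPM below contains this shift. Of 7 miRNAs known from muscle, 3 were above 0 in normoxic cells, 2 in hypoxic cells, 1 in normoxic exosomes and 0 in hypoxic exosomes. miR-133a-3p, miR-133b-3p, miR-208a-3p and miR-208b-3p, which mark striated muscle and heart, were listed at 0 in all 4 libraries. Among the muscle miRNAs above 0, miR-499-5p was highest in cells. It reached 26.6 RPM (277 reads) in the normoxic cell library and 12.7 RPM (169 reads) in the hypoxic one. miR-206-3p stood at 3.27 and 1.51 RPM in these libraries, and both miRNAs were at 0 in exosomes. Only the normoxic libraries held miR-1-3p above 0, at 2.31 RPM for cells and 0.843 RPM for exosomes. All 4 miRNAs known from fibroblasts and smooth muscle were above 0 in every library, with summed levels of 35642 RPM in normoxic cells, 17387 RPM in hypoxic cells, 27.0 RPM in normoxic exosomes and 592 RPM in hypoxic exosomes.

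A minority of the miRNAs numbered 1000 or more was identified, that is, had at least 10 reads. In normoxic cells 40 of the 140 (28.6%) were above 0, in hypoxic cells 39 (27.9%), in normoxic exosomes 6 (4.29%) and in hypoxic exosomes 14 (10%). Of the 625 older miRNAs, 298 (47.7%), 292 (46.7%), 68 (10.9%) and 130 (20.8%) were identified in the same libraries. Altogether 43 of the 140 (30.7%) were above 0 in at least 1 library, against 313 of the 625 older miRNAs (50.1%). The other 97 of the 140 were at 0 in all 4. By number, 8 of 26 from the 1000s, 28 of 89 from 3000 to 5132 and 7 of 23 from the 6000s were identified, and the single miRNAs from the 2000s and 7000s were not. Those that were identified also had fewer reads, with a median of 73.5 in normoxic cells against 299.5 for the older miRNAs, and 27.5 against 64.5 in hypoxic exosomes.

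The 4 libraries held partly the same of these miRNAs. In both cell libraries 37 of the 140 were identified, against 316 of all 765 miRNAs. miR-3557-5p, miR-3556a, miR-3574, miR-3591 and miR-1839-5p were above 0 in all 4 libraries, and 8 more were above 0 in hypoxic exosomes and both cell libraries. Another 24 were above 0 in both libraries of cells and at 0 in exosomes. Exosomes also held fewer miRNAs of the whole table, with 74 identified in normoxic and 144 in hypoxic exosomes, against 338 and 331 in cells. miR-3586-5p was the only one of the 140 that was above 0 in both exosome libraries and at 0 in both libraries of cells. miR-3587 (41 reads), miR-1956-3p (20 reads) and miR-6315 (13 reads) were above 0 only in normoxic cells, and miR-3065-5p (15 reads) and miR-1949 (14 reads) only in hypoxic cells. Since fewer than 10 reads are listed at 0, a miRNA at 0 is not shown to be absent.

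Very few of the miRNAs supplied most of the reads, and cells and exosomes differed in which. Together the 140 held 49326 reads in normoxic cells, 55945 in hypoxic cells, 736 in normoxic exosomes and 7378 in hypoxic exosomes. This was 0.929% of the miRNA reads in normoxic cells (95% exact binomial interval 0.921% to 0.937%) and 1.56% in hypoxic cells (1.55% to 1.58%). In normoxic exosomes the share was 5.41% (5.04% to 5.81%) and in hypoxic exosomes 6.78% (6.63% to 6.93%). Intervals throughout reflect counting error alone, because each group was 1 library. Reads copied by PCR are not separate molecules, so these intervals may be too narrow.

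Of these reads miR-3556a held 48.7% in the normoxic and 60.3% in the hypoxic cell library, and miR-3557-5p held 85.7% in normoxic and 88.3% in hypoxic exosomes. Without miR-3556a the share of all miRNA reads was 0.479% in normoxic and 0.627% in hypoxic cells. Without miR-3557-5p it was 0.810% in normoxic and 0.844% in hypoxic exosomes. These values leave out different miRNAs and so do not compare cells with exosomes. miR-3557-5p alone held 0.0679% of miRNA reads in normoxic cells, 0.0815% in hypoxic cells, 4.64% in normoxic exosomes and 5.98% in hypoxic exosomes. Left out of every library, it would leave cells with the higher share in both conditions. The higher share in exosomes thus came from miR-3557-5p. It ranked 6 of 74 identified miRNAs in normoxic exosomes and 5 of 144 in hypoxic exosomes, and 78 in each library of cells.

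**Figure D1:**
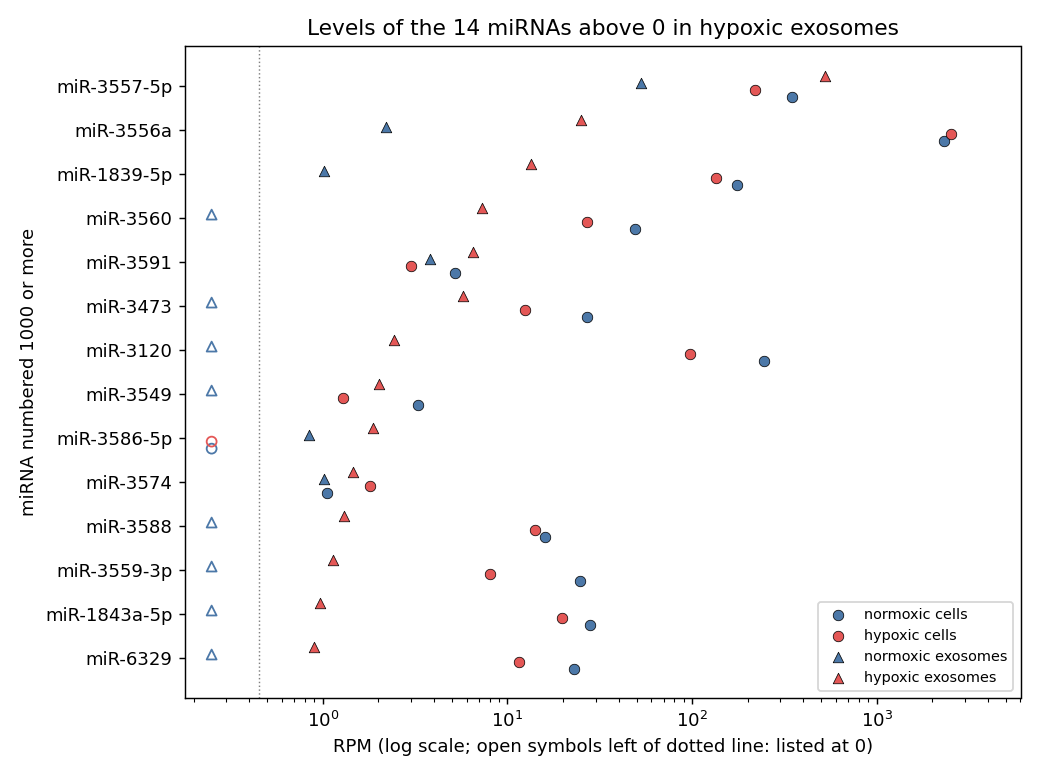
RPM (log scale) in the 4 libraries of the 14 miRNAs numbered 1000 or more that were above 0 in hypoxic exosomes, with circles for cells and triangles for exosomes, 1 library each and no error bars. miR-3557-5p was highest in hypoxic exosomes (527 RPM), miR-3556a was highest in cells (2307 and 2538 RPM), and open symbols left of the dotted line are miRNAs listed at 0.

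miR-3557-5p, antisense to miR-378a-3p, was the leading one in exosomes. Its level was 346 RPM in normoxic cells, 219 RPM in hypoxic cells, 53.2 RPM in normoxic exosomes and 527 RPM in hypoxic exosomes. Hypoxic exosomes thus had the highest and normoxic exosomes the lowest level of the 4 libraries. The ratio of hypoxia to normoxia was 0.634 in cells (95% counting interval 0.603 to 0.665) and 9.92 in exosomes (9.14 to 10.8). As a share of miRNA reads it was 0.0679% in normoxic cells, 0.0815% in hypoxic cells, 4.64% in normoxic exosomes and 5.98% in hypoxic exosomes, so that on this scale hypoxia was higher in both cells and exosomes. Its 3p arm had 6.82 RPM in normoxic and 5.19 RPM in hypoxic cells and was at 0 in exosomes.

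miR-3556a, antisense to miR-29a-3p, a miRNA known for targeting collagen messenger RNAs, was the most abundant one in cells. It had 2307 RPM in normoxic cells, 2538 RPM in hypoxic cells, 2.19 RPM in normoxic exosomes and 24.9 RPM in hypoxic exosomes. It was among the few with a higher level in hypoxic cells, at a ratio of 1.10 (1.08 to 1.12), and its ratio in exosomes was 11.4 (7.62 to 17.7). It ranked 29 in normoxic and 17 in hypoxic cells among all miRNAs.

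miR-3596d, antisense to let-7f-5p, followed in cells and was listed at 0 in exosomes. With 1156 RPM in normoxic and 903 RPM in hypoxic cells, its ratio was 0.781 (0.762 to 0.801). Its seed was that of let-7a-1-3p, let-7b-3p, let-7c-2-3p, let-7f-1-3p and miR-98-3p, the 3p arms of the let-7 family. miR-3596c (75.4 and 49.6 RPM), miR-3596b (14.9 and 10.4 RPM) and miR-3596a (3.27 and 1.51 RPM), antisense to let-7e-5p, let-7d-5p and let-7a-5p, were lower in normoxic and hypoxic cells, and at 0 in exosomes.

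miR-1839-5p had no antisense partner in the table, and RefSeq names its gene Scarna15, a small Cajal body RNA. Its level was 174 RPM in normoxic cells, 135 RPM in hypoxic cells, 1.01 RPM in normoxic exosomes and 13.4 RPM in hypoxic exosomes. The ratio in cells was 0.776 (0.727 to 0.829) and that in exosomes 13.3 (7.41 to 26.2), the highest exosome ratio among the 6 miRNAs identified in both exosome libraries. miR-3068 and miR-1843a likewise carry the RefSeq gene names of small nucleolar or Cajal body RNAs, Snora58 and Scarna3. miR-3068-5p had 31.2 RPM in normoxic and 26.3 RPM in hypoxic cells and was at 0 in exosomes. miR-1843a-5p had 28.0 RPM in normoxic cells, 19.6 RPM in hypoxic cells and 0.971 RPM in hypoxic exosomes.

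Hypoxic and normoxic cells were compared by the ratio of their RPM among miRNAs with at least 10 reads in both, and a ratio above 2 or below 0.5 was taken as past the fold, the limit used by the study. Most of the miRNAs had lower RPM in hypoxic cells, as did most older ones. Of 37 identified in both libraries, 32 were below 1 and 5 above 1. A ratio below 0.5 was found for 7 of the 37 (18.9%), against 27.8% of all 316 miRNAs, and a ratio above 2 for 0 of the 37, against 1.27% of all. The median ratio was 0.657 for the 37 and 0.612 for all 316. When each library was scaled to its miRNA total, the median of the 37 was above 1, at 1.25 (1.16 for all), 28 of the 37 were above 1, and 4 were above 2 and 0 below 0.5. Counts over all 316 miRNAs are given on the RPM scale only, so these scaled counts have no background beside them.

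**Figure D2:**
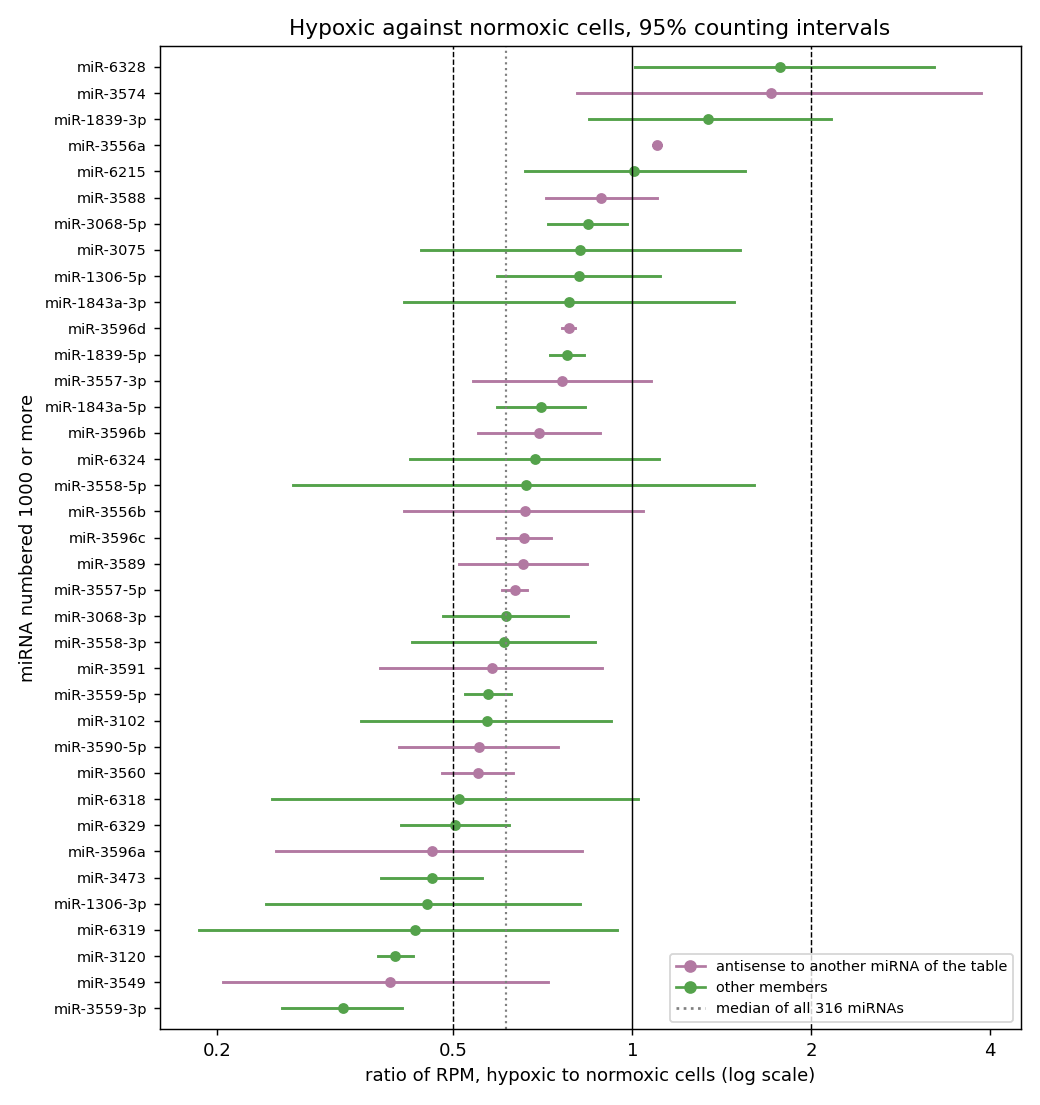
Ratio of RPM in hypoxic to normoxic cells (log scale) for the 37 miRNAs numbered 1000 or more with at least 10 reads in both libraries, 1 library per condition, with 95% exact counting intervals as lines. Purple marks those with an antisense partner among the listed miRNAs and green the rest, which include miR-3120, opposite Mir214. Points range from 0.326 (miR-3559-3p) to 1.77 (miR-6328), dashed lines mark 0.5 and 2, the dotted line marks the median of all 316 miRNAs (0.612), and when scaled to the miRNA total 28 of the 37 points lie above 1.

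miR-3559-3p had the lowest ratio, with 24.7 RPM in normoxic and 8.05 RPM in hypoxic cells (0.326, 0.258 to 0.410). Its partner arm miR-3559-5p, from the same hairpin within Zdhhc15, had 108 and 61.9 RPM (0.572, 0.522 to 0.626). The ratio of the 5p to the 3p arm was therefore 4.38 (3.82 to 5.04) in normoxic and 7.68 (6.27 to 9.49) in hypoxic cells, with intervals that do not overlap. miR-3120 had 244 RPM in normoxic and 97.4 RPM in hypoxic cells (0.399, 0.373 to 0.427). Its gene lies opposite Mir214 within Dnm3, but no antisense partner of miR-3120 was found among the listed miRNAs. miR-214-3p, from that opposite hairpin and abundant in fibroblasts, had a ratio of 0.552 (0.536 to 0.569). For miR-3559-3p and miR-3120 the whole interval lay below 0.5.

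For the other 5 below 0.5 the interval reached above 0.5. miR-3473 had 27.0 RPM in normoxic and 12.4 RPM in hypoxic cells (0.460, 0.377 to 0.559), and its gene lies within Zranb3. For miR-3549 (3.27 and 1.28 RPM), miR-6319 (1.92 and 0.828 RPM), miR-1306-3p (3.17 and 1.43 RPM) and miR-3596a, the ratios were 0.392, 0.431, 0.451 and 0.461, with interval ends between 0.186 and 0.943. miR-1306 lies within Dgcr8, which encodes the partner of Drosha in miRNA processing, and its 5p arm had 7.88 and 6.40 RPM (0.812, 0.592 to 1.11). Just outside the limit were miR-6329 (0.503) and miR-6318 (0.511).

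Besides miR-3556a, a ratio above 1 was found for miR-6328, miR-3574, miR-1839-3p and miR-6215. miR-6328, within Ppp1r18, had 1.83 RPM in normoxic and 3.24 RPM in hypoxic cells (1.77, 1.01 to 3.22). The intervals of miR-3574 (1.71, 0.806 to 3.86), miR-1839-3p (1.34, 0.844 to 2.16) and miR-6215 (1.01, 0.660 to 1.54) contained 1. Among all 37, the interval lay wholly below 1 for 23, wholly above 1 for 2 and on both sides for 12. The same split over all 316 miRNAs is not given. It would also depend on reads, of which the older miRNAs had more, with a median of 299.5 against 73.5 in normoxic cells.

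The arms of a hairpin differed in level for all 7 hairpins with both arms above 0 in cells, and the 5p arm was higher in all but miR-3558. The 5p to 3p ratio in normoxic and hypoxic cells was 58.5 and 33.9 for miR-1839, 50.8 and 42.3 for miR-3557, 13.2 and 11.9 for miR-1843a, 2.48 and 4.47 for miR-1306 and 2.03 and 2.79 for miR-3068. For miR-3558, within Ttc7a, it was 0.171 and 0.186. The arm with the higher level was the same in normoxia and hypoxia for all 7.

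Exosomes of the 2 conditions were compared in the same way. Of the 6 miRNAs identified in both exosome libraries, 4 (66.7%) had a ratio above 2, against 84.9% of all 73 miRNAs, and 0 had a ratio below 0.5, against 1.37% of all. The median of the 6 was 6.06 and that of all 73 was 6.73. On the scale of the miRNA total these medians were 0.788 and 0.875, and 0 of the 6 were above 2 and 3 below 0.5. Counts over all 73 miRNAs are not given on that scale.

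The 6 fell into a group with large and a group with small ratios. miR-1839-5p (13.3), miR-3556a (11.4) and miR-3557-5p (9.92) remained above 1 when scaled to the miRNA total, at 1.73, 1.48 and 1.29. The counting interval of the scaled ratio lay wholly above 1 only for miR-3557-5p (1.19 to 1.40). miR-3586-5p had 0.843 RPM in normoxic and 1.86 RPM in hypoxic exosomes (2.21, 1.01 to 5.20).

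miR-3591, antisense to the liver miRNA miR-122-5p, had 5.19 RPM in normoxic cells, 3.01 RPM in hypoxic cells, 3.79 RPM in normoxic exosomes and 6.48 RPM in hypoxic exosomes. Its level thus stayed within a narrow range across libraries in which the miRNA fraction ranged from 0.115% to 51.0% of the reads. Its ratio of hypoxia to normoxia was 0.580 (0.376 to 0.890) in cells and 1.71 (1.17 to 2.52) in exosomes. miR-3574, antisense to miR-210-3p, a miRNA induced by hypoxia, had 1.06 RPM in normoxic and 1.81 RPM in hypoxic cells and 1.01 RPM in normoxic and 1.46 RPM in hypoxic exosomes, from 11 to 24 reads, and an exosome ratio of 1.44 (0.657 to 3.28). Scaled to the miRNA total, the exosome ratios of miR-3586-5p, miR-3591 and miR-3574 were 0.287, 0.222 and 0.187.

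The remaining 8 miRNAs of the exosomes were above 0 only in the hypoxic library, with 11 to 90 reads, as were 71 miRNAs of the whole table. They were miR-3560 (7.29 RPM), miR-3473 (5.75 RPM), miR-3120 (2.43 RPM), miR-3549 (2.02 RPM), miR-3588 (1.30 RPM), miR-3559-3p (1.13 RPM), miR-1843a-5p (0.971 RPM) and miR-6329 (0.890 RPM). miRNA reads were 8.01 times as numerous in the hypoxic exosome library, and at 10 reads the smallest value it lists stands for 0.809 RPM, against 0.843 RPM in normoxic exosomes.

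Exosomes were compared with the cells of the same condition by each miRNA's share of the miRNA reads of its library, because miRNAs were a far smaller part of the exosome reads. In normoxia 5 were identified in both, of which 4 had a share in exosomes more than 2 times that in cells, against 42.5% of all 73 miRNAs, and 1 less than 0.5 times, against 30.1%. In hypoxia 13 were identified in both, of which 10 were above 2, against 44.9% of all 138 miRNAs, and 1 below 0.5, against 31.9%. The median ratio was 68.4 against 1.35 over all miRNAs in normoxia and 4.30 against 1.51 in hypoxia. A miRNA of low level in cells can enter this comparison only where it is high enough in exosomes, so these medians describe the identified miRNAs and not all 140.

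**Figure D3:**
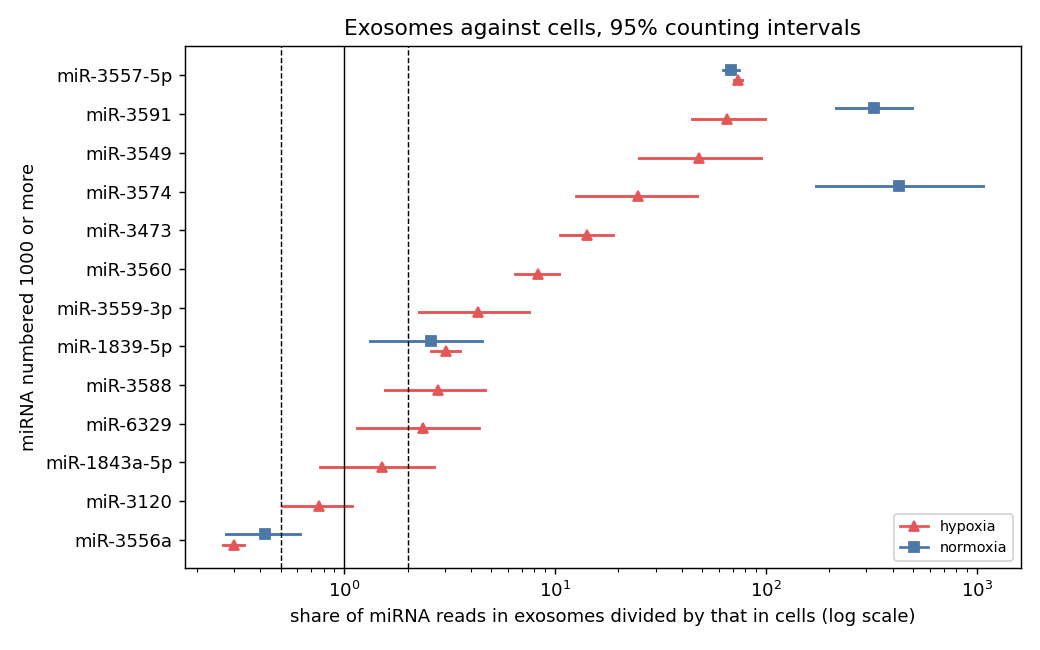
Share of miRNA reads in exosomes divided by that in cells of the same condition (log scale) for the miRNAs numbered 1000 or more identified in both, 1 library per condition, with squares for normoxia, triangles for hypoxia and 95% exact counting intervals as lines. miR-3557-5p had similar ratios in both conditions (68.4 and 73.4), miR-3556a lay below 0.5 in both, and dashed lines mark 0.5 and 2.

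miR-3557-5p had an exosome to cell ratio of 68.4 under normoxia (62.7 to 74.4) and 73.4 under hypoxia (70.3 to 76.7), with overlapping intervals. miR-3556a was the one below 0.5 in both conditions, at 0.423 (0.276 to 0.620) and 0.300 (0.268 to 0.336). The most abundant miRNAs of this group in cells and in exosomes therefore lay on opposite sides of 1. For miR-1839-5p the ratio was 2.58 (1.33 to 4.52) under normoxia and 3.03 (2.57 to 3.56) under hypoxia.

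The highest ratios in normoxia were those of miR-3574, at 426 (172 to 1066), and miR-3591, at 325 (214 to 493). Both were lower in hypoxia, at 24.7 (12.6 to 47.4) and 65.7 (44.4 to 98.6). miR-3574 had 11 reads in normoxic cells and 12 in normoxic exosomes, near the minimum of 10, and miR-3591 had 54 and 45. With reads so alike, the normoxic ratios mainly restate the miRNA totals of 5310302 and 13598 reads. In hypoxia these totals were 3578371 and 108860, so a fall in the ratios follows largely from the totals. The RPM of both miRNAs in exosomes, by contrast, were slightly higher in hypoxia than in normoxia. In hypoxia ratios above 2 were also found for miR-3549 (48.3), miR-3473 (14.1), miR-3560 (8.29), miR-3559-3p (4.30), miR-3588 (2.80) and miR-6329 (2.36), and miR-1843a-5p (1.51) and miR-3120 (0.762) lay between 0.5 and 2.

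Since the medium held bovine serum, miRNAs known from liver and red blood cells were read beside these values. miR-122-5p of liver had 14.9 RPM in normoxic cells, 5.72 RPM in hypoxic cells, 11.1 RPM in normoxic exosomes and 15.1 RPM in hypoxic exosomes, and miR-3591 had the same order of libraries. Of 3 miRNAs known from red blood cells, 2 were above 0 in normoxic cells (summed level 2.79 RPM), 1 in hypoxic cells (1.13 RPM), 1 in normoxic exosomes (3.54 RPM) and 2 in hypoxic exosomes (19.6 RPM). miR-144-3p was at 0 in all 4. The part of serum RNA in these results was not tested.

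The late numbers held many sequences antisense to older miRNAs. Of the 126 with a RefSeq sequence, 33 (26.2%) had 16 or more bases in a row in common with the reverse complement of another miRNA of the table. All 33 were numbered in the 3000s and lay at the site of that miRNA on the opposite strand in GRCr8, and 20 of them were contained in the reverse complement over their whole length. Of the 33, 17 were identified in at least 1 library, and of the 93 with no such partner, 24. The 17 held 84.7% of the reads of the miRNAs numbered 1000 or more in normoxic cells (95% exact binomial interval 84.4% to 85.0%), 90.1% in hypoxic cells (89.8% to 90.3%), 97.0% in normoxic exosomes (95.5% to 98.1%) and 95.6% in hypoxic exosomes (95.1% to 96.0%). Whether reads were assigned by strand is not given in the sources used here, and without strand the reads of a miRNA and of its antisense partner cannot be told apart.

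Of the 33 pairs, both miRNAs were identified in 14, only the late-numbered one in 3, only the older one in 5 and neither in 11. The 3 were miR-3560 opposite miR-501-3p, miR-3557-3p opposite miR-378a-5p and miR-3065-5p opposite miR-338-3p. miR-3560 had 48.9 RPM in normoxic cells, 26.9 RPM in hypoxic cells and 7.29 RPM in hypoxic exosomes, while miR-501-3p was listed at 0 in all 4 libraries. The 5 older miRNAs without an identified partner were miR-183-5p, miR-24-1-5p, miR-181a-1-3p, miR-1-3p and miR-130a-5p.

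**Figure D4:**
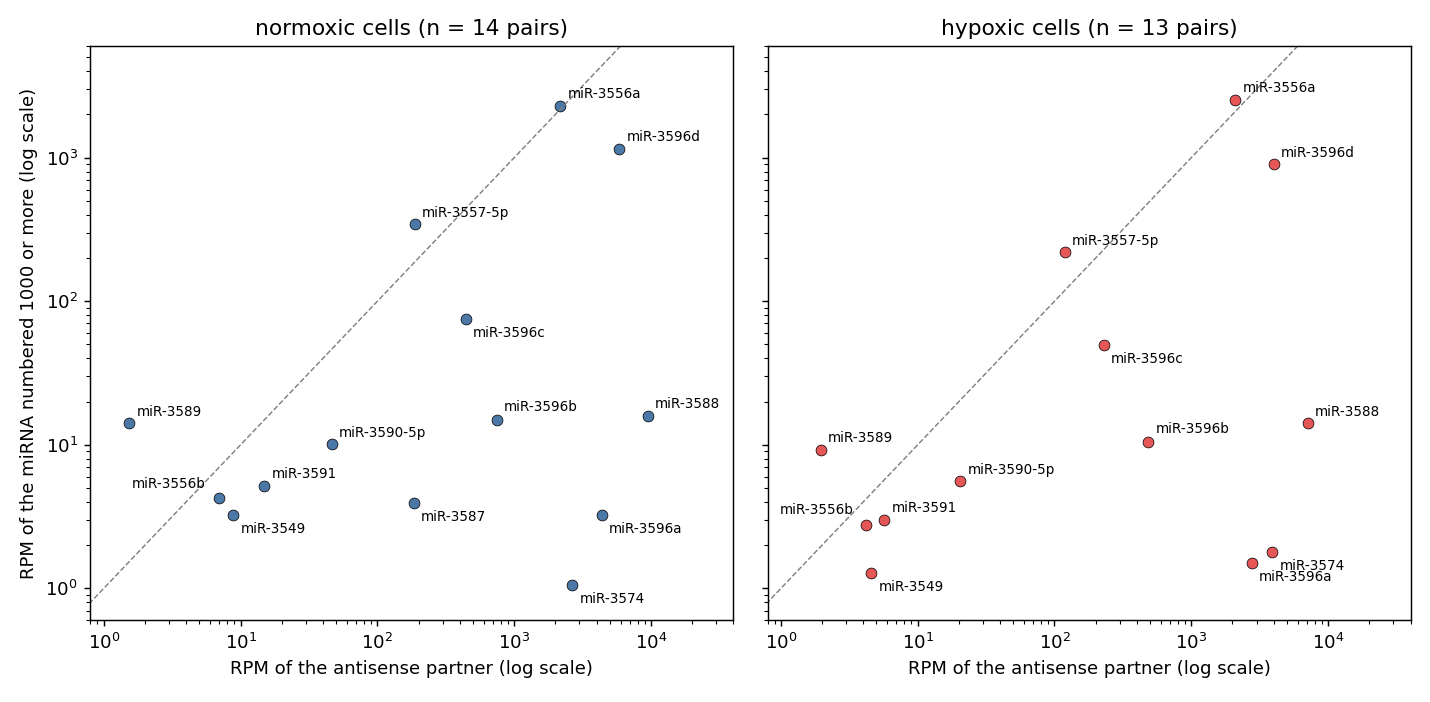
RPM of each late-numbered miRNA against that of its antisense partner (both axes log scale) in normoxic cells (14 pairs) and hypoxic cells (13 pairs), 1 library each and no error bars, with equal levels on the dashed line. miR-3557-5p, miR-3556a and miR-3589 lie above the line in both panels, and the other pairs lie below it, down to a ratio of 0.000399 for miR-3574 in normoxic cells.

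In 13 pairs both miRNAs were identified in both libraries of cells, and the levels within a pair differed widely. The older miRNA was higher in 10 of the 13. The ratio of the late-numbered to the older miRNA in normoxic cells ranged from 0.000399 for miR-3574 and miR-210-3p to 9.19 for miR-3589 and miR-505-3p, with a median of 0.218. miR-3588 and miR-125b-5p had a ratio of 0.00168, and miR-3596d and let-7f-5p one of 0.198. Over the 13 pairs the Spearman correlation of the 2 levels in normoxic cells was 0.281, given as a description of pairs that share a library.

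miR-3557-5p exceeded miR-378a-3p in each library. miR-378a-3p, a miRNA of energy metabolism, had 188 RPM in normoxic cells, 118 RPM in hypoxic cells, 49.3 RPM in normoxic exosomes and 275 RPM in hypoxic exosomes. The ratio of miR-3557-5p to it was 1.84 (1.74 to 1.95) in normoxic cells, 1.85 (1.74 to 1.97) in hypoxic cells, 1.08 (0.962 to 1.21) in normoxic exosomes and 1.92 (1.84 to 2) in hypoxic exosomes. Normoxic exosomes stood apart, with an interval that overlaps none of the other 3. In cells both strands had nearly the same ratio of hypoxia to normoxia, 0.634 and 0.629, and in exosomes 9.92 (9.14 to 10.8) and 5.57 (5.10 to 6.10), with intervals that do not overlap.

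miR-3556a and miR-29a-3p had like levels in cells and unlike levels in exosomes. The ratio of miR-3556a to miR-29a-3p was 1.06 (1.05 to 1.08) in normoxic and 1.21 (1.19 to 1.23) in hypoxic cells. In hypoxic exosomes it was 17.1 (10.6 to 29.3), from 308 reads of miR-3556a and 18 of miR-29a-3p, and in normoxic exosomes miR-29a-3p was listed at 0 and miR-3556a had 26 reads. For miR-3591 and miR-122-5p the ratio was 0.348 in normoxic and 0.526 in hypoxic cells and 0.341 in normoxic and 0.428 in hypoxic exosomes, and all 4 intervals lay between 0.237 and 0.782. For miR-3574 and miR-210-3p it was higher in exosomes than in cells, at 0.0496 in normoxic and 0.00918 in hypoxic exosomes against 0.000399 and 0.000461 in cells. miR-3588 to miR-125b-5p likewise was 0.174 in hypoxic exosomes against 0.00200 in hypoxic cells.

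Over the 13 pairs the log2 ratios of hypoxia to normoxia in cells of the late-numbered and the older miRNA had a Spearman correlation of 0.698 and a Pearson correlation of 0.720, again as a description, since each pair shares both libraries. In 11 of the 13 both ratios lay on the same side of 1, and the intervals overlapped in 10. Since 86.7% of all 316 miRNAs had a ratio below 1 in cells, most unpaired miRNAs would also share a side. The count of 11 therefore does not show likeness within pairs. The intervals did not overlap for miR-3556a (1.10 against 0.966 for miR-29a-3p), miR-3596d (0.781 against 0.684 for let-7f-5p) and miR-3596c (0.657 against 0.516 for let-7e-5p). In each of these the late-numbered miRNA was the higher. In cells the 15 miRNAs with an antisense partner had a median ratio of 0.657, and the 21 others with a known sequence had 0.663.

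Genes that are neighbours on the same strand also differed in level. Mir3556a and Mir3587, opposite Mir29a and Mir29b1, lie 246 bases apart in GRCr8, and miR-3556a had 24004 reads in normoxic cells where miR-3587 had 41. The genes of miR-3596d and miR-3596b lie 1667 bases apart, opposite the let-7f and let-7d hairpins, and the miRNAs had 12029 and 155 reads. In sequence length the identified miRNAs ranged from 18 to 25 bases, with a median of 22, and their median GC content was 47.6% against 52.2% for those not identified. Of the 41 identified with a sequence, 30 lay within the span of a protein-coding gene. The number for those not identified is not given, nor is the strand of these genes.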

How the data were processed

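Small RNA-seq was analysed for 4 libraries, 1 per condition. The authors enriched RNAs of 18 to 30 nucleotides, sequenced them by Illumina and deposited RPM of 765 rat miRNAs. The submitters' processing notes name the build Rnor 6.0. Not given in the sources used here are the aligner, the counter, the use of strand and which reads set the RPM scale.

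For each library the largest step that divides all values above 0 was found. After division 100% of the values were whole within 0.1, and the smallest was 10 steps. Steps were read as reads and used for 95% exact (Clopper-Pearson) intervals. No count model was fitted, and no p-value was computed. Recovery and intervals were tested on simulated data. The simulated reads were Poisson draws with the same steps and the same minimum of 10 reads. PCR copies and variation between cultures were not simulated, so the intervals were not tested for these. The intervals are widest in normoxic exosomes, where reads were fewest. Ratios of RPM were taken where both libraries had 10 reads or more. RPM of different miRNAs also depend on ligation and PCR.

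Named miRNAs were those identified in exosomes, with at least 50 reads in a library of cells, past 2-fold, or identified in 1 library of cells only, with a few others as examples. The miRNAs, the marker lists and these rules were chosen with earlier results of these data known. Sequences, gene names and positions are those of RefSeq for GRCr8, where 690 of the 765 names matched. Bases shared with a reverse complement were counted from 16 in a row. The alternatives were other scales, minimums, folds and a pseudocount of 1 RPM. Summing antisense pairs and leaving them out were added after the data were examined. Tools were pandas 2.3.3, scipy 1.17.1, numpy 2.4.6 and matplotlib 3.10.9 under Python 3.11.15.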

Additional observations from a re-analysis of the deposited data

Results flagged for a closer look

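Of the 5 miRNAs numbered 1000 or more that were above 0 in all 4 libraries, 3 had a counting interval wholly below 1 for hypoxia to normoxia in cells and wholly above 1 in exosomes. The ratios of miR-3557-5p were 0.634 in cells and 9.92 in exosomes. Those of miR-3591 were 0.580 and 1.71. For miR-1839-5p they were 0.776 and 13.3. Over all miRNAs identified in both libraries, the ratio was below 1 for 86.7% of 316 in cells and for 5.48% of 73 in exosomes. The sums of RPM over all miRNAs moved the same ways, with ratios of 0.528 in cells and 7.69 in exosomes. With 1 library per condition, whether cells and exosomes differ in these ratios was not tested.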

How the results depend on the processing

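With at least 20 reads in place of 10, 3 miRNAs were identified in normoxic and 9 in hypoxic exosomes. Without its leading miRNA, miR-3556a, the share of miRNA reads in cells was 0.479% in normoxia and 0.627% in hypoxia. Without miR-3557-5p, the leading one in exosomes, it was 0.810% in normoxic and 0.844% in hypoxic exosomes. With miR-21-5p left out of the total it was 2.06% in normoxic cells, 3.04% in hypoxic cells and 6.93% in hypoxic exosomes. The number below 0.5 in hypoxic cells was 0 when scaled to the miRNA total, 0 when the median of all miRNAs was set to 1, 3 with at least 50 reads in 1 library and 1 at 3-fold. The number above 2 in cells was 4 on the total, 3 on the median and 2 with 1 RPM added. The median ratio in cells went to 1.25 on the total and 1.07 on the median. In exosomes 3 were below 0.5 and 0 above 2 on either scale, and 9 were above 2 with 1 RPM added. The median in exosomes went to 0.788 and 0.901, and the ratio of miR-3586-5p to 0.287 and 0.328. Both scales divide every ratio of a comparison by 1 factor, and counts past the fold over all miRNAs are given for RPM only. With miR-21-5p left out of the total, 2 miRNAs in place of 1 had a share in hypoxic exosomes below 0.5 times that in cells. The number with a share in exosomes above 2 times that in cells was then 7 in place of 10 in hypoxia. In normoxia it was 3 in place of 4. Summing each miRNA with its antisense partner, which was chosen after the data were examined, could move 13 of 15 ratios in cells, since the partners of the other 2 were at 0 in both libraries. Of the 13, 10 stayed within the interval of the miRNA alone, as did 2 of 4 in exosomes. The others were miR-3556a (1.04), miR-3596d (0.700) and miR-3596c (0.537) in cells and miR-3557-5p (7.83) and miR-3574 (7.48) in exosomes. No paired analysis was possible because each condition was 1 library. At 0 were 134 of the 140 miRNAs in normoxic exosomes, from 13598 miRNA reads, and 100 in normoxic cells, from 5310302, and the part of depth was not tested.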
